A study of Mus musculus with 9 samples.

Results

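The genes described here are 10 negative regulators of growth factor and MAP kinase signalling: the dual-specificity phosphatases Dusp1, Dusp4, Dusp5, Dusp6, Dusp10 and Dusp16, the Sprouty genes Spry1, Spry2 and Spry4, and the receptor inhibitor gene Errfi1. They were picked by gene symbol, with earlier results of these libraries known, so the choice was not blind to the data. All 10 were among the 20535 genes that could be tested, out of 20591 in the count table. RNA-seq had been run on lysates of the substantia nigra, the midbrain region that holds the dopamine neurons lost in Parkinson's disease. All animals were wild type C57BL/6 mice with a sham operation that were 12 weeks old at allocation. The groups of 3 libraries each were mice kept for 1 week on intermittent fasting with 3 fasts of 24 hours, mice fasted once for 1 day, and mice with free access to food for 1 week. A fast began 2 hours before lights off, and the ad libitum mice had the same cage transfers as the fasted mice. The sources used here give neither the sex of the mice nor the time between the last fast and sampling. Nothing in the labels says that each library came from its own animal, so the spread behind each p-value may be partly technical.

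MAP kinases (ERK, JNK and p38) carry signals from growth factor receptors and from cell stress to the nucleus, and they are switched off when a phosphatase removes the phosphates from their activation loop. Dusp1, Dusp4 and Dusp5 encode nuclear phosphatases whose transcripts are induced rapidly by activity, stress or, for Dusp1, by glucocorticoid hormone. Dusp6 encodes a cytoplasmic phosphatase selective for ERK, and Dusp10 and Dusp16 encode phosphatases that act mainly on JNK and p38. Sprouty proteins restrain the step from receptor tyrosine kinases to Ras and ERK, and Errfi1 encodes an adaptor that binds and inhibits the kinase domains of EGFR and ErbB2. Many of these genes are induced by the pathway that they restrain, so their transcripts are used as readouts of feedback.

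The promoter windows of Errfi1 and Dusp1 are shown because these genes had the highest log2 fold changes of the 10 after a single fast, and that of Dusp10 because its libraries lay below the controls after it. Windows of 250 bases before the annotated start came from RefSeq on mouse build GRCm38.p6, and 8 of the 10 genes matched, with 9 windows. Dusp4 and Spry4 did not match. Capitals mark every match, on either strand, to the cAMP response element TGACGTCA, to TGACG (the first 5 letters of that element, so each full element holds 2 of these on opposite strands), to TATAAA, to the E-box CACGTG, or to AGAACA, which is found in elements bound by the glucocorticoid receptor.
Errfi1 (chr4:150854820-150855069, plus strand, the second of 2 annotated starts): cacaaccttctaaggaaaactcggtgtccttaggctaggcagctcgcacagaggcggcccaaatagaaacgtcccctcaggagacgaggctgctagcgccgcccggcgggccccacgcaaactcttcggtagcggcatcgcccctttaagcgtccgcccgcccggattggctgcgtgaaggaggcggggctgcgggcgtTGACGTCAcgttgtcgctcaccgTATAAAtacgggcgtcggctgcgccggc
Dusp1 (chr17:26508473-26508722, minus strand): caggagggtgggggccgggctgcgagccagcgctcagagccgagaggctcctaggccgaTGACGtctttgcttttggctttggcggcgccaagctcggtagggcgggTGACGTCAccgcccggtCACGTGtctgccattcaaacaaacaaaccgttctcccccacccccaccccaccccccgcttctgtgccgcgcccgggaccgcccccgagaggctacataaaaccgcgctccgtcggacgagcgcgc
Dusp10 (chr1:184034131-184034380, plus strand): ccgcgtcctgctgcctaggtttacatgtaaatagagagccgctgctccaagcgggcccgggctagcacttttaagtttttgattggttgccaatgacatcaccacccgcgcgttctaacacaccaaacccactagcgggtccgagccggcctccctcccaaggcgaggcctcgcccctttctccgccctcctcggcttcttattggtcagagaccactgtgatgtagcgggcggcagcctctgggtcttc

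The full element TGACGTCA lay at -51 to -44 from the start of Errfi1 and at -143 to -136 from that of Dusp1, and in none of the other 7 windows of these genes. It was present in 1.55% of all 32851 promoter windows. The Errfi1 window also held TATAAA at -28 to -23 and the Dusp1 window CACGTG at -126 to -121, which were present in 12.4% and 6.02% of all windows. TGACG, in 17.8% of all windows, also occurred once each in the windows of Dusp5 and Dusp16. AGAACA occurred in none of the 9, against 16.1% of all windows. These matches are descriptions of the letters in these windows and do not show that a factor binds there.

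Errfi1 rose after 1 week of intermittent fasting. Its level was 50.8, 75.5 and 74.1 CPM (the count relative to the library's TMM-scaled total) in the 1 week libraries, replicates 1 to 3, and 59.9, 55.8 and 45.4 CPM in the 1 day libraries. In the ad libitum libraries it was 32.1, 30.7 and 32.7 CPM. Every library from fasted mice lay above every ad libitum library. After 1 week the level was 2.10-fold that of ad libitum mice (66.8 ± 13.9 CPM against 31.8 ± 0.993 CPM, SD, n = 3 each; log2 fold change 1.07, SE 0.16, edgeR adjusted p = 0.0321). After 1 day it was 1.69-fold (53.7 ± 7.45 CPM against 31.8 CPM; log2 fold change 0.75, SE 0.16), which did not pass at an adjusted p of 0.185, with a 95% interval of 1.32 to 2.16-fold. In lysates of whole tissue, fewer cells of a type and less RNA per cell cannot be told apart, and this holds for every level given here.

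The size of the Errfi1 increase after 1 week varied little between fits, from 0.95 to 1.23 on the log2 scale over 16 alternatives, but its call did not hold in all of them. Among the fits that left libraries out, it was lost without ad libitum replicate 1, 2 or 3 (adjusted p = 0.188, 0.171 and 0.180), without 1 day replicate 1 (0.0563), and without 1 week replicate 2 or 3 (0.127 and 0.114). It was also lost without 1 day replicate 2 and 1 week replicate 2 together (log2 fold change 0.98, adjusted p = 0.0821), the libraries with the lowest estimated quality weights. With the replicate number added to the fit as a block the Errfi1 call was lost as well. DESeq2 called Errfi1 after 1 day as well (log2 fold change 0.77, adjusted p = 0.00512).

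**Figure D1:**
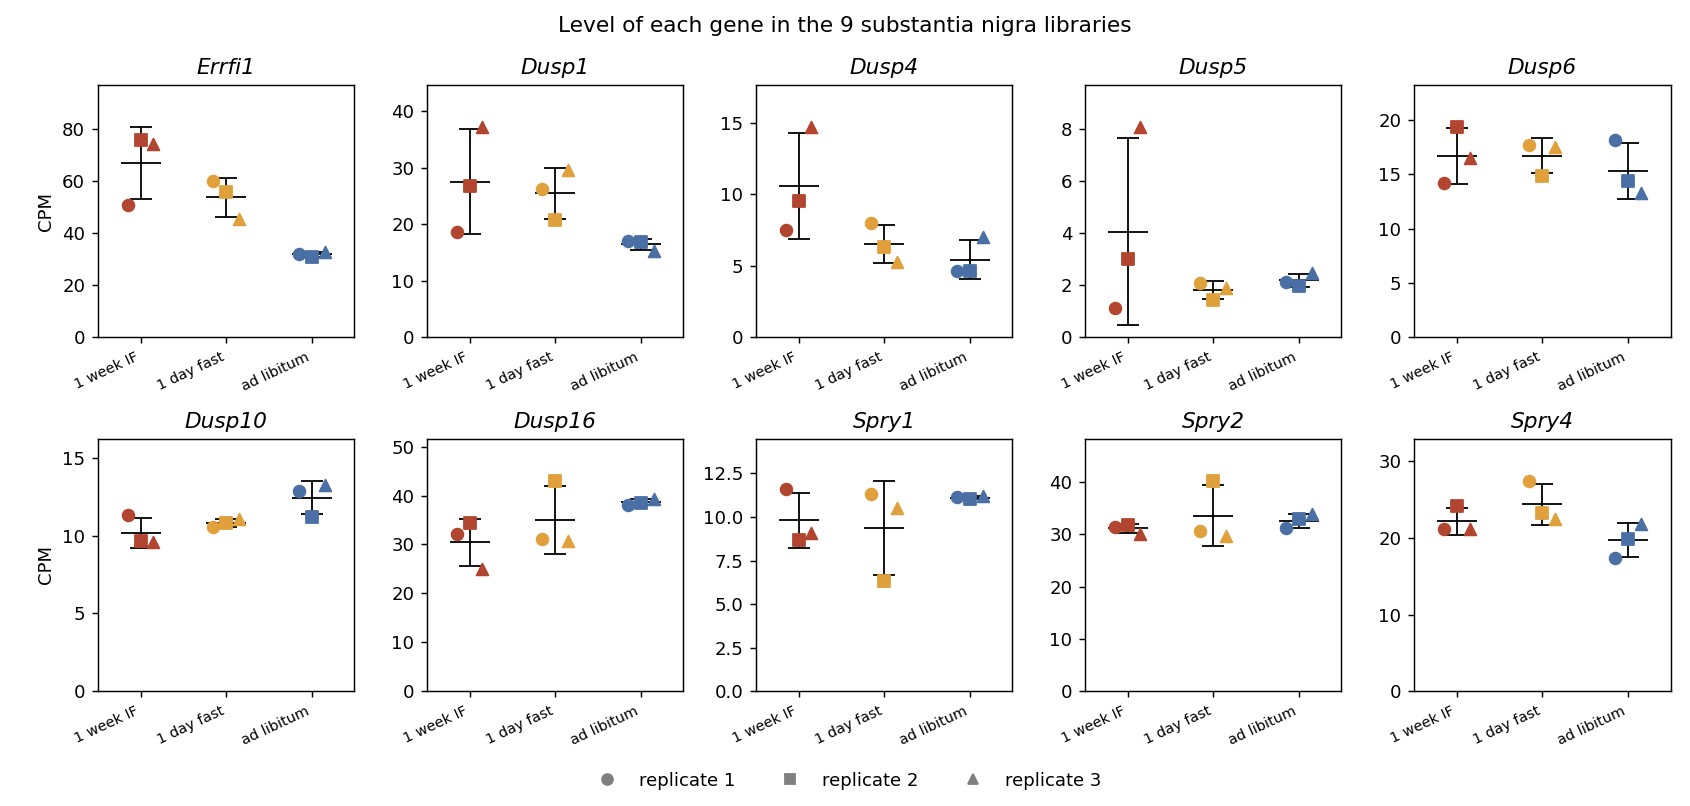
Level in CPM (y axis, from 0) of each of the 10 genes in the libraries of the 1 week, 1 day and ad libitum groups (x axis); symbols are single libraries, long bars the mean and whiskers 1 SD of 3 libraries. Errfi1 lies above all ad libitum libraries in all 6 libraries from fasted mice, and Dusp5 reaches 8.07 CPM in 1 library of the 1 week group.

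Of the 10 genes, Errfi1 alone passed the test after 1 week, where 0.307% of all genes did, and 0.253% of all genes passed as higher (edgeR, adjusted p below 0.05). After 1 day 0 of the 10 passed, against 0.0584% of all genes, although 3 (Errfi1, Dusp1 and Spry4) had an unadjusted p below 0.05, as did 1904 of all 20535 genes, DESeq2 called 1 and limma's voom with quality weights called 0. After 1 week 4 of the 10 (Errfi1, Dusp4, Dusp1 and Dusp10) had an unadjusted p below 0.05, as did 2305 of all 20535 genes. In that comparison 6 of the 10 had a positive and 4 a negative log2 fold change, with a median of 0.15 against -0.0013 over all genes, and after 1 day the signs again numbered 6 and 4 with a median of 0.09 against 0.0004. Both comparisons share the ad libitum libraries.

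Groups that did not overlap were counted as well. After 1 week the libraries of 3 genes (Errfi1, Dusp1 and Dusp4) all lay above those of ad libitum mice, where 10.9% of all genes did, and those of Dusp16 all lay below, where 11.5% did. After 1 day the libraries of Errfi1, Dusp1 and Spry4 all lay above, where 8.17% of all genes did, and those of Dusp10 all lay below, where 10.3% did. With 1 gene of 10 lower in each comparison, the share of lower genes was near that of all genes.

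**Figure D2:**
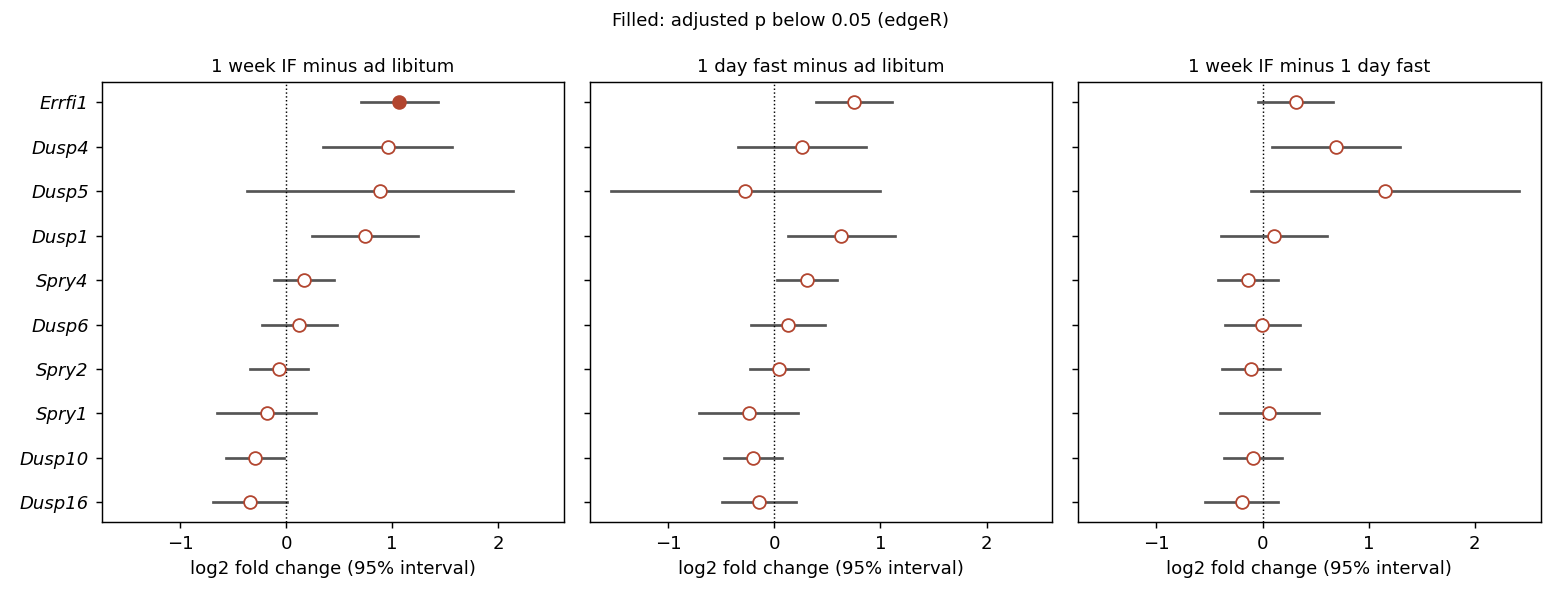
Log2 fold change (x axis) of each gene (rows) for 1 week against ad libitum, 1 day against ad libitum and 1 week against 1 day, with 95% intervals as lines; filled points passed edgeR's test at an adjusted p of 0.05. The only filled point is Errfi1 after 1 week, at 1.07, and the widest intervals are those of Dusp5.

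Dusp1, the nuclear phosphatase that acts on p38, JNK and ERK, was at 18.6, 26.7 and 37.2 CPM in the 1 week libraries, 26.2, 20.7 and 29.6 CPM in the 1 day libraries and 17.1, 16.9 and 15.4 CPM in the ad libitum libraries. The ad libitum libraries lay close together and below all others, while the 1 week libraries were spread widely, with replicate 1 just above the controls and replicate 3 the highest of all 9. The level after 1 week was 1.67-fold that of ad libitum mice (95% interval 1.18 to 2.37; log2 fold change 0.74, SE 0.22, adjusted p = 0.246). After 1 day it was 1.55-fold (1.10 to 2.19; log2 fold change 0.63, SE 0.22, adjusted p = 0.485). Neither passed the test. Without 1 week replicate 3 the log2 fold change after 1 week was 0.46, and without 1 week replicate 1 it was 0.96.

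Fos, an immediate early gene and a marker of recent neuronal activity, was at 4.63, 13.3 and 19.0 CPM in 1 week replicates 1, 2 and 3, at 21.4, 13.3 and 23.5 CPM in the 1 day libraries and at 6.78, 5.47 and 4.96 CPM in the ad libitum libraries. Within each of the 3 groups the libraries had the same order by Fos as by Dusp1, and over the 9 libraries the log2 levels of Dusp1 and Fos correlated at r = 0.88. Dusp1 correlated with Sgk1, a glucocorticoid-induced kinase gene, at r = 0.80. Across the same libraries Errfi1 correlated at r = 0.66 with Fos and at r = 0.90 with Sgk1. These r values describe 9 libraries that share group differences. In 1 week replicate 1, Sgk1 was at 287 CPM, Errfi1 at 50.8 CPM and Dusp1 at 18.6 CPM. Each lay above all ad libitum libraries (40.7 to 51.9 CPM, 30.7 to 32.7 CPM and 15.4 to 17.1 CPM). Fos was at 4.63 CPM there, just below the lowest ad libitum library at 4.96 CPM. This is 1 library, and what raised these genes was not tested.

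Dusp4, which encodes a nuclear phosphatase close to that of Dusp1, was at 7.52, 9.54 and 14.7 CPM after 1 week, 7.98, 6.33 and 5.28 CPM after 1 day and 4.67, 4.66 and 7.00 CPM in ad libitum mice. The 1 week libraries lay above the ad libitum ones without overlap, and the 1 day libraries overlapped both groups. The level after 1 week was 1.94-fold that of ad libitum mice (95% interval 1.27 to 2.96; log2 fold change 0.96, SE 0.27) and did not pass edgeR's test (adjusted p = 0.217), while DESeq2 called it (log2 fold change 0.96, adjusted p = 0.0369). After 1 day the log2 fold change was 0.26 (SE 0.27, adjusted p = 0.727). Without 1 week replicate 3 the log2 fold change after 1 week was 0.65.

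Dusp5, whose product is a nuclear phosphatase specific for ERK, was the lowest of the 10 genes, with 55 to 349 raw counts per library. Its level was 1.12, 3.00 and 8.07 CPM after 1 week, 2.10, 1.42 and 1.91 CPM after 1 day and 2.13, 1.97 and 2.47 CPM in ad libitum mice. The 1 week group held both the lowest and the highest of the 9 libraries. The log2 fold change after 1 week was 0.89 (SE 0.56, 95% interval -0.37 to 2.14, adjusted p = 0.617), and without 1 week replicate 3 it was -0.10. After 1 day it was -0.27 (SE 0.56, adjusted p = 0.866).

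The library with the highest Dusp1, Dusp4 and Dusp5, 1 week replicate 3, also had the highest summed level of cortical neuron markers. The sum over 5 measured markers of 6 was 559 CPM in it, and 18.1 and 47.6 CPM in the other 1 week libraries, 10.8 to 14.4 CPM in the 1 day libraries and 39.9 to 65.3 CPM in the ad libitum libraries. None of the 5 was at 0 counts in any library. Slc17a7, a vesicular glutamate transporter gene of cortical neurons, was at 501 CPM there and between 4.31 and 49.2 CPM elsewhere, and its log2 level correlated at r = 0.86 with Dusp5, 0.57 with Dusp4, 0.21 with Dusp1 and 0.11 with Errfi1 over the 9 libraries. Summed blood markers were also highest there, at 1506 CPM against 282 to 623 CPM in the other 8 libraries. So were summed fibroblast and meninges markers (532 CPM against 163 to 356 CPM) and, by a small margin, mural cell markers (396 CPM against 235 to 380 CPM). The part of these markers in the values of Errfi1, Dusp1, Dusp4 and Dusp5 was not tested beyond leaving the library out. Without this library the log2 fold change of Errfi1 after 1 week was 0.99, against 1.07 with it, and the edgeR call of Errfi1 was lost.

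**Figure D3:**
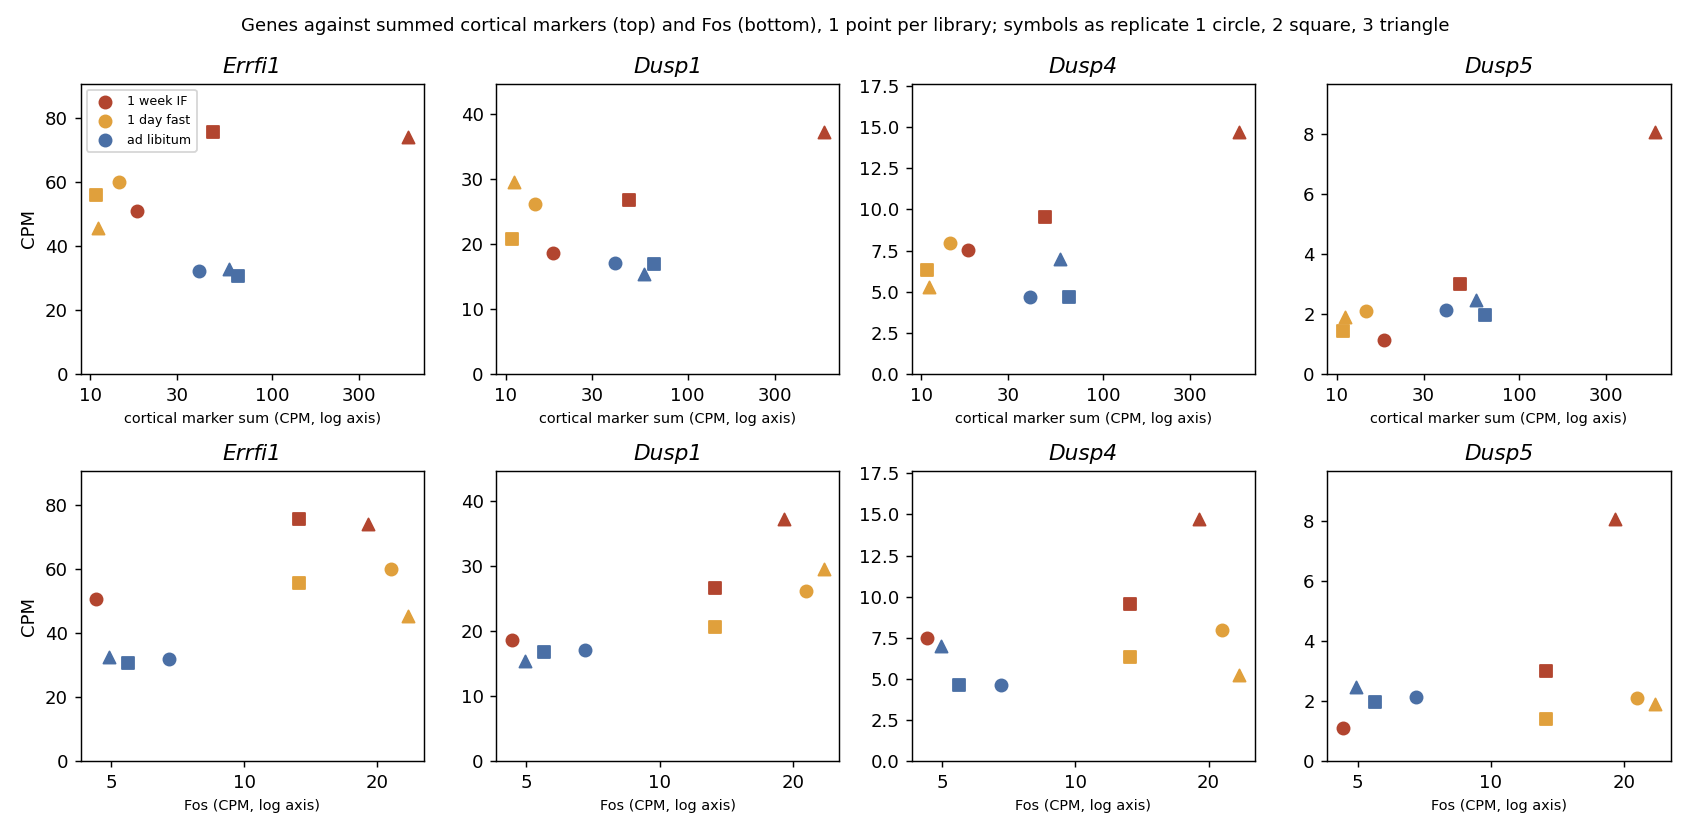
CPM of Errfi1, Dusp1, Dusp4 and Dusp5 (y axes, from 0) in each of the 9 libraries against the summed level of cortical markers (top row) and against Fos (bottom row), both in CPM on log axes; colours are groups and shapes are replicates. The library of the 1 week group with 559 CPM of cortical markers has the highest Dusp1, Dusp4 and Dusp5.

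Dusp6, which encodes the cytoplasmic ERK phosphatase, was at 14.2, 19.4 and 16.5 CPM after 1 week, 17.7, 14.9 and 17.6 CPM after 1 day and 18.2, 14.4 and 13.3 CPM in ad libitum mice. All 3 groups overlapped. The log2 fold change was 0.13 both after 1 week (SE 0.16, adjusted p = 0.818) and after 1 day (SE 0.16, adjusted p = 0.765), each with a 95% interval of -0.22 to 0.48.

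Dusp10 and Dusp16, the phosphatase genes for JNK and p38, had negative log2 fold changes in both comparisons with ad libitum mice. Dusp10 was at 11.3, 9.65 and 9.59 CPM after 1 week, 10.6, 10.8 and 11.1 CPM after 1 day and 12.9, 11.2 and 13.3 CPM in ad libitum mice. Its 1 day libraries lay just below the lowest control, and its 1 week libraries overlapped the controls by 1 library. The log2 fold change was -0.29 after 1 week (SE 0.12, 95% interval -0.56 to -0.02, adjusted p = 0.414) and -0.20 after 1 day (SE 0.12, adjusted p = 0.585).

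Dusp16 was at 32.1, 34.3 and 25.1 CPM after 1 week, 31.2, 43.1 and 30.6 CPM after 1 day and 38.1, 38.6 and 39.3 CPM in ad libitum mice. The 1 week libraries all lay below the controls, and in the 1 day group replicate 2 lay above all controls. The log2 fold change was -0.34 after 1 week (SE 0.16, 95% interval -0.69 to 0.01, adjusted p = 0.454) and -0.14 after 1 day (SE 0.16, adjusted p = 0.737). Neither gene passed the test in any of the 16 alternatives, and both kept a negative log2 fold change in all of them.

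None of the Sprouty genes passed the test in any comparison. Spry2, the highest of them per length of transcript, was at 31.5, 31.8 and 30.1 CPM after 1 week, 30.7, 40.3 and 29.8 CPM after 1 day and 31.2, 32.8 and 33.8 CPM in ad libitum mice. Apart from 1 day replicate 2 the libraries lay within a narrow band, and the 95% interval after 1 week was 0.789 to 1.16-fold (0.954-fold, adjusted p = 0.885). After 1 day it was 0.851 to 1.25-fold (1.03-fold, adjusted p = 0.908).

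Spry1 was at 11.6, 8.67 and 9.11 CPM after 1 week, 11.3, 6.30 and 10.5 CPM after 1 day and 11.1, 11.0 and 11.2 CPM in ad libitum mice. The lowest library was 1 day replicate 2, the library with the lowest quality weight, and without it the log2 fold change after 1 day was -0.02 in place of -0.24 (SE 0.21, adjusted p = 0.679). After 1 week it was -0.18 (SE 0.21, adjusted p = 0.808).

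Spry4 was at 21.2, 24.2 and 21.2 CPM after 1 week, 27.5, 23.2 and 22.4 CPM after 1 day and 17.4, 19.9 and 21.9 CPM in ad libitum mice. The 1 day libraries lay above all controls by a small margin, and the 1 week libraries overlapped them. The level was 1.24-fold that of ad libitum mice after 1 day (log2 fold change 0.31, 95% interval 0.02 to 0.59, unadjusted p = 0.0358 and adjusted p = 0.528 by edgeR) and 1.13-fold after 1 week (log2 fold change 0.17, 95% interval -0.11 to 0.45, adjusted p = 0.674).

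Between 1 week of intermittent fasting and a single fast none of the 10 genes differed at an adjusted p of 0.05, nor did any other gene by edgeR (0% of 20535), although 1071 genes had an unadjusted p below 0.05 DESeq2 called 3 and voom called 0. Dusp4 was the 1 gene of the 10 with an unadjusted p below 0.05 (log2 fold change 0.70, SE 0.27, adjusted p = 0.853). Errfi1 was 1.24-fold as high after 1 week as after 1 day (66.8 ± 13.9 CPM against 53.7 ± 7.45 CPM, SD, n = 3 each), with a 95% interval of 0.972 to 1.59-fold, and Dusp1 was 1.08-fold as high (0.765 to 1.52). None of the 10 had groups without overlap in this comparison, where 4.5% of all genes did as higher and 3.28% as lower.

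Levels were compared between genes per kilobase of annotated exon. In ad libitum mice Spry2 came first with 15.6 CPM per kb, followed by Errfi1 with 9.84, Dusp1 with 6.93, Dusp6 with 5.47, Dusp16 with 5.14, Dusp10 with 4.46, Spry4 with 4.15, Spry1 with 3.82, Dusp4 with 1.99 and Dusp5 with 0.885 CPM per kb. The ranges of neighbours in this order overlapped for Dusp1 and Dusp6, for Dusp6 and Dusp16, for Dusp10 and Spry4, and for Spry4 and Spry1, and not for the others. After 1 week Errfi1 came first with 20.7 CPM per kb, without overlap with Spry2 at 14.9 CPM per kb, and after 1 day the ranges of Errfi1 (16.6 CPM per kb) and Spry2 (16.1 CPM per kb) overlapped.

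For each gene the tested genes with the most similar log2 level over the 9 libraries were looked up among 13888 named genes. These had a mean log2 CPM of 0 or more. The genes most like Errfi1 were Pdk4 (r = 0.987), a kinase gene that limits glucose oxidation, Net1 (0.976), a guanine nucleotide exchange factor gene, and Mettl7a1 (0.975). Pdk4 was 2.59-fold and Net1 2.79-fold as high after 1 week as in ad libitum mice (25.3 ± 5.96 CPM against 9.73 ± 0.630 CPM, and 39.8 ± 5.03 CPM against 14.2 ± 1.06 CPM, SD, n = 3 each; adjusted p = 0.0229 and 0.00256). Both were picked for their likeness to Errfi1 in these same libraries, so their rise is no separate evidence. For Dusp1 they were Mycl and Nyx (0.931 each) and Magef1 (0.925), for Dusp4 Il1r1 (0.976), an interleukin receptor gene, Emilin2 (0.957) and Klf4 (0.955), and for Dusp5 Mc4r (0.978), a melanocortin receptor gene, Coro1a (0.954) and Cracdl (0.951). Dusp6 was most like Zfp747 (0.927), Rasd1 (0.925) and Arsj (0.914), Dusp10 most like Layn (0.961), Plxdc2 (0.956) and Heatr3 (0.954), and Dusp16 most like Acsl6 (0.978), Vwa8 (0.965) and Dennd5a (0.965). For the Sprouty genes the nearest were Srebf1 for Spry1 (0.991), App for Spry2 (0.990) and Neu4 for Spry4 (0.936). With so many genes searched over 9 libraries, high values occur for every gene, and they are given as a description.

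The rest of these pathways was described with 8 further lists, whose members were tested in the same edgeR fit. Their counts at an unadjusted p below 0.05 stand against 2305 of 20535 genes after 1 week and 1904 of 20535 after 1 day. Of 13 other MAP kinase phosphatases 0 passed after 1 week (median log2 fold change -0.08, 1 with an unadjusted p below 0.05) or after 1 day (-0.18, 3 with such a p), while DESeq2 and voom each called 1 as lower after 1 week. The smallest p after 1 week was that of Dusp19 (log2 fold change -0.42, SE 0.11, adjusted p = 0.176). Of 16 other Sprouty, Spred and receptor brake genes 0 passed in either comparison (medians -0.02 and -0.06, with 1 and 0 genes at an unadjusted p below 0.05, and 0 by DESeq2 and voom). Nf1, the Ras GTPase-activating protein neurofibromin, had the smallest p in both, with log2 fold changes of -0.37 and -0.22 (adjusted p = 0.287 and 0.568).

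Among 22 ERK cascade components 0 passed after 1 week (median -0.02) or 1 day (-0.03), with 2 at an unadjusted p below 0.05 in each, and DESeq2 and voom each called 1 as higher after 1 week. Ptpn11, the phosphatase SHP2 that promotes Ras activation, had log2 fold changes of 0.61 after 1 week (SE 0.14, adjusted p = 0.130) and 0.45 after 1 day (adjusted p = 0.427), and Gab1, its docking protein, of -0.45 and -0.38 (adjusted p = 0.245 and 0.486). Among 20 components of the JNK and p38 cascades 0 passed by edgeR, DESeq2 or voom (medians -0.04 and -0.03, with 1 and 0 at an unadjusted p below 0.05). Mapk10, a JNK gene of neurons, was at -0.28 after 1 week (adjusted p = 0.295).

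Of 17 growth factor receptors 0 passed, with medians of 0.04 after 1 week and 0.01 after 1 day and 5 and 4 genes at an unadjusted p below 0.05, and DESeq2 called 1 as lower after 1 week. Fgfr2, which oligodendrocytes and astrocytes express, was at -0.62 after 1 week (SE 0.16, adjusted p = 0.180) and -0.44 after 1 day (adjusted p = 0.503), and Kdr, the VEGF receptor of endothelial cells, at -0.64 and -0.49 (adjusted p = 0.263 and 0.525). Of 20 ligands 0 passed by edgeR (medians -0.08 and -0.12, with 2 at an unadjusted p below 0.05 in each), and DESeq2 called 1 as lower in each comparison. Tgfa, a ligand of EGFR, was at -0.62 after 1 week (SE 0.15, adjusted p = 0.168) and -0.50 after 1 day (adjusted p = 0.420), and Pdgfb was at -0.65 after 1 day (SE 0.12, adjusted p = 0.136). Between 1 week and 1 day the log2 fold change of Pdgfb was 0.51 (SE 0.12, edgeR adjusted p = 0.853), which did not pass the test. None of the members of these 6 lists passed edgeR's test after 1 week or 1 day in any fit that left out 1 library.

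Of 24 transcription factors and other targets induced by ERK 0 passed after 1 week (median 0.14, 20 positive and 4 negative) or after 1 day (median 0.07, 14 positive and 10 negative) by edgeR. An unadjusted p below 0.05 was found for 5 and 9 of the 24, against 2305 and 1904 of all 20535 genes, and after 1 day DESeq2 called 2 as higher and voom called 1. With only the 6 libraries compared, edgeR also called 1 as higher after 1 day. It did so too without 1 week replicate 1, and without 1 day replicate 2 and 1 week replicate 2 together. No other edgeR fit called any of the 24 after 1 day. Btg2, an antiproliferative immediate early gene, had log2 fold changes of 0.48 after 1 week (adjusted p = 0.278) and 0.95 after 1 day (SE 0.16, adjusted p = 0.0860), and Klf4 had 0.54 after 1 week (SE 0.17, adjusted p = 0.254). Fos was at 1.76 after 1 day (SE 0.45, adjusted p = 0.356).

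Of 20 glucocorticoid-induced genes 13 rose after 1 week (median 1.58) and 5 after 1 day (median 1.03), and 0 fell. Of all genes 0.253% passed as higher after 1 week, and 0.0584% passed in either direction after 1 day. This list was written with earlier results of these libraries known, so its direction is no independent evidence. Sgk1 was 5.99-fold as high after 1 week and 4.55-fold as high after 1 day as in ad libitum mice (log2 fold change 2.58 and 2.19, adjusted p = 0.00154 and 0.00468). Arl4d, Arrdc2 and the lipid droplet gene Plin4 had log2 fold changes of 2.11, 2.03 and 3.53 after 1 week and 1.88, 1.56 and 2.66 after 1 day, and Pdk4, the gene most like Errfi1, is also on this list. DESeq2 and voom each called 16 after 1 week, and they called 13 and 10 after 1 day. By edgeR the count after 1 week was 4, 6 and 3 when ad libitum replicate 1, 2 or 3 was left out, and 8 when 1 week replicate 2 or 3 was. The count after 1 day was 0 without any 1 of the ad libitum libraries, and 2 without 1 day replicate 1 or 3. Calls over all genes fell in these fits too. After 1 week they numbered 8, 11 and 9 without ad libitum replicate 1, 2 or 3. Without 1 week replicate 2 or 3 they numbered 22 and 17. After 1 day they numbered 0 without any 1 of the ad libitum libraries and 2 without 1 day replicate 1 or 3.

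**Figure D4:**
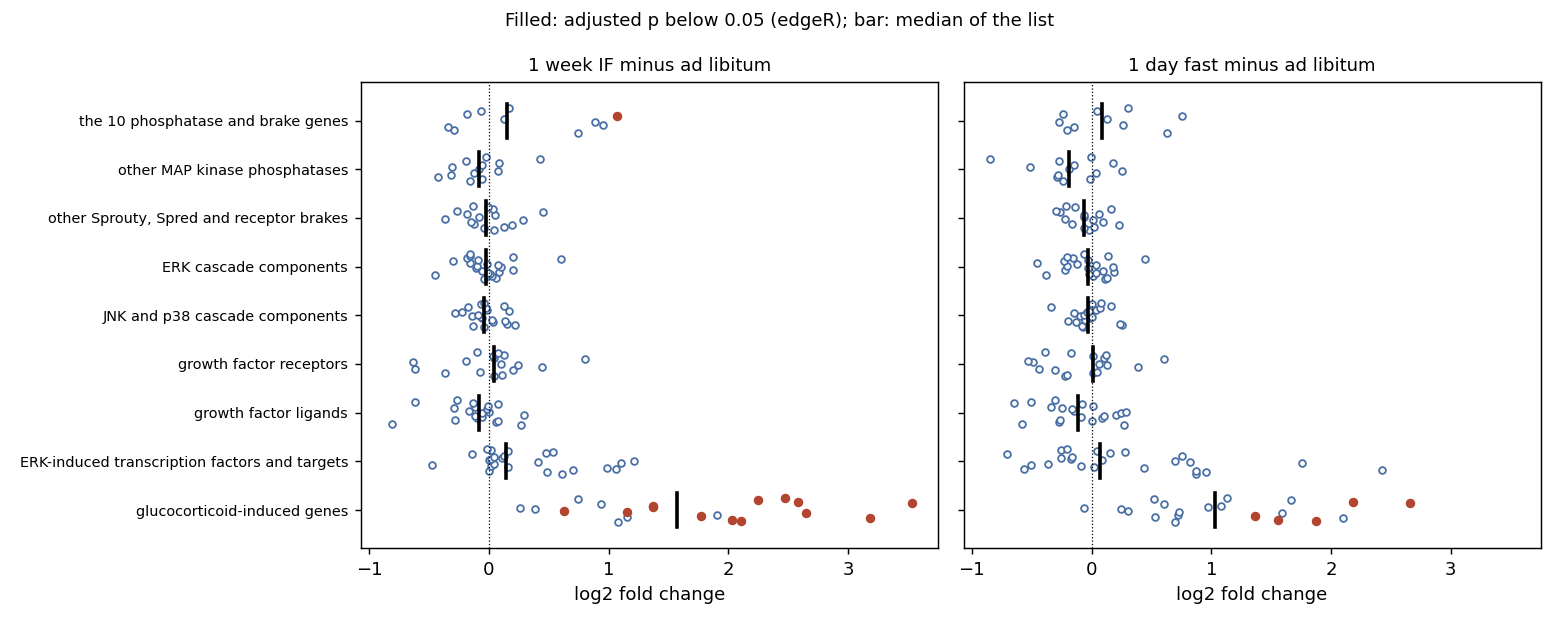
Log2 fold change (x axis) of every tested gene of the 10 described here and of 8 pathway lists (rows), after 1 week against ad libitum (left) and after 1 day against ad libitum (right); bars are list medians and filled points passed edgeR's test at an adjusted p of 0.05. Filled points are found in the glucocorticoid list and, after 1 week, at Errfi1.

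The libraries held 36109995 to 54248856 counts each. The 10 markers of dopaminergic neurons were all measured, and Th, which encodes tyrosine hydroxylase, was between 76.1 and 296 CPM. It was lowest in 1 day replicates 2 and 3 (88.6 and 76.1 CPM). Of the 10 markers 9 had positive log2 fold changes after 1 week (median 0.18) and 6 had negative ones after 1 day (median -0.19). By edgeR 0 had an unadjusted p below 0.05 in either comparison. Ttr, abundant in choroid plexus, reached 335 CPM in ad libitum replicate 3, against 2.61 to 35.5 CPM in the other libraries. In the marker lists for cell types present in the tissue, Ugt8a of 10 oligodendrocyte markers fell after 1 week (log2 fold change -1.24, adjusted p = 0.0381), Gjb6 of 9 astrocyte markers rose (0.78, adjusted p = 0.0364) and Slc2a1, the glucose transporter of the blood-brain barrier, of 8 endothelial markers rose (0.92, adjusted p = 0.0381). Of the 10 oligodendrocyte markers 9 had negative log2 fold changes in each comparison with ad libitum mice (medians -0.40 after 1 week and -0.31 after 1 day). By edgeR 5 of them had an unadjusted p below 0.05 in each, against 2305 and 1904 of all 20535 genes. Of the 9 astrocyte markers 6 were positive and 3 negative in each comparison (medians 0.10 and 0.13). Of the 8 endothelial markers 6 had negative log2 fold changes in each comparison with ad libitum mice (median -0.13 after 1 week and -0.27 after 1 day). All 9 microglia markers had negative ones after 1 day and 8 of 9 after 1 week (medians -0.47 and -0.30), with 0 past the test and 4 and 2 at an unadjusted p below 0.05. Of the 8 oligodendrocyte precursor markers 7 had negative ones after 1 day and 6 after 1 week (medians -0.16 and -0.14). Among these 0 passed the test and 2 had an unadjusted p below 0.05 in each. The part of cell composition in the values above was not tested.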

How the data were processed

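PolyA RNA of 9 substantia nigra lysates was sequenced with a directional library kit, per the labels' protocols. The authors deposited whole-number estimated counts; Salmon (version not given in the sources used here), DESeq2 1.40.2 and builds GRCm39 and mm39 are named in the submitters' processing notes. Row means are 9.89 counts or more, so genes below about that level were not analysed here. Columns were matched to samples by their labels.

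Testing used edgeR 4.0.16 under R 4.3.3, with TMM scaling, filterByExpr (minimum count 10, minimum total 15; 56 rows removed, 20535 tested), 1 robust quasi-likelihood fit over all 9 libraries, two-sided F tests, and Benjamini-Hochberg adjustment over all genes with a threshold of 0.05. Standard errors and 95% intervals came from the F statistics. CPM are counts on the TMM scale. Exon lengths came from GENCODE M21 (GRCm38), matched by gene ID. DESeq2 1.42.0 and limma 3.58.1 were alternatives. The steps were tested on simulated data. A minimum recovery by edgeR was required there only for the largest simulated fold change, which is above those of the 10 genes. No pair of libraries agreed within sampling noise (chi-square per gene 26.4 or more). The pairs with ad libitum replicate 2 had the highest values, from 158 to 312. Its quality weight was 1.49, against 0.213 for 1 day replicate 2 and 0.507 for 1 week replicate 2, the lowest weights.

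The genes, lists, motifs and tests were chosen with earlier results of these data known. Named genes were the 10 genes, up to 4 called or 2 uncalled genes per list by smallest p (fewer are printed), the 3 most similar genes for each of the 10 (1 each for the Sprouty genes here), and the check genes Th, Sgk1, Fos, Slc17a7 and Ttr.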

Additional observations from a re-analysis of the deposited data

How the results depend on the processing

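The 16 alternative fits per comparison were RLE scaling, no low-count filter, DESeq2, voom with quality weights, the 6 libraries compared, a replicate block, leaving out the libraries with the lowest quality weights (1 day replicate 2 and 1 week replicate 2), and leaving out each of the 9 libraries. Of the 10 genes, DESeq2 called 1 after 1 day and 2 after 1 week (against 0 and 1), the count after 1 week was 0 without both low-weight libraries, and it ranged from 0 to 1 when single libraries were left out. Over all genes the counts after 1 day (12) and after 1 week (63) were 187 and 467 with DESeq2, 57 and 218 with voom, and 26 and 155 with the 6 libraries compared. The count after 1 day was 50 without both low-weight libraries, and leaving out 1 library gave 0 to 22 after 1 day, 8 to 121 after 1 week and 0 to 3 between the fasting groups, where DESeq2 called 3.

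Same-numbered libraries did not deviate together in all pairs (r from -0.243 to 0.411), so the numbers were not taken to pair them. Pairs of unlike number from different groups had r from -0.329 to 0.270. The value of 0.411 was that of 1 day replicate 2 and 1 week replicate 2, the low-weight libraries. Whether these share a batch was not tested. With the replicate block 2 and 9 of the 20 glucocorticoid-induced genes passed after 1 day and 1 week, against 5 and 13 without it. Over all genes the block gave 2 calls after 1 day and 32 after 1 week, with 0 of the 10 genes among them (Errfi1 after 1 week 1.06, adjusted p = 0.0880), and the log2 fold change of Dusp6 between the fasting groups was 0.0005.

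Signs turned only for log2 fold changes that had not passed. Between 1 week and 1 day, voom gave -0.13 for Dusp1, -0.0289 for Spry1 and 0.0035 for Spry2, and leaving out both low-weight libraries gave -0.0665 for Spry1 and 0.0351 for Spry2. For Spry2 after 1 day the same settings gave -0.0739 and -0.11. Leaving out single libraries gave -0.17 to 0.33 for Dusp1, -0.11 to 0.10 for Dusp6, -0.15 to 0.22 for Spry1 and -0.19 to 0.0469 for Spry2 between the fasting groups, -0.11 to 0.13 for Spry2 after 1 day and -0.10 to 1.34 for Dusp5 after 1 week. The causes were not tested. Of 480 alternative values for the 10 genes, 450 kept direction and side of the threshold. Dusp5 had the lowest count of the 10 genes in a library, 55.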

Other observations

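Deviations from the group means of log2 level, which leave out the differences between groups, were compared between the 10 genes over the 9 libraries as a description. Dusp1 and Dusp5 deviated together (r = 0.914), as did Dusp4 and Dusp5 (0.789), with 1 week replicate 3 high for all 3. Dusp16 and Spry2 deviated together as well (0.843), with 1 day replicate 2 the highest library for both genes. Spry1 ran opposite to Spry2 (-0.824) and Dusp16 opposite to Dusp1 (-0.758). Errfi1 was closest to Dusp4 (0.727) and Dusp5 (0.691). In 1 day replicate 2 Errfi1 was at 55.8 CPM, within the range of the other 1 day libraries.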
